A study of Caenorhabditis elegans with 4 samples.

Results

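The X chromosome of Caenorhabditis elegans carried 674 of the 4152 peaks in the authors' combined list of regions enriched by JUN-1::GFP chromatin immunoprecipitation with sequencing (ChIP-seq). The 674 were taken as every row of that list placed on X, a rule that uses position alone. The replicate 1 list held 347 X peaks of 1862 and the replicate 2 list 672 X peaks of 4143. All libraries came from hermaphrodite worms of strain OP234 at L4, the last larval stage, grown at 20 °C and crosslinked with 2% formaldehyde. The strain carries the unc119(ed3) mutation and the transgene wgIs234, introduced by biolistic transformation, which holds T24H10.7 joined to the TY1, EGFP and FLAG tags beside a working unc119. T24H10.7 is jun-1, a chromosome II gene. The 4 libraries are 2 ChIP replicates, collected with goat antibodies against GFP, and 2 inputs. Every library carries the transgene, no worms without the tag are among them, and whether the ChIP replicates came from separate cultures is not stated in the labels. Titles and descriptions of the libraries name ChIP and input the opposite way round. Groups follow the titles, since it is under the ChIP titles that peaks are filed, and which label is right was not tested.

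JUN-1 is the worm relative of Jun, the basic leucine zipper protein that pairs with Fos to form the transcription factor AP-1, which binds short DNA sites near the genes it regulates. ChIP-seq peaks of a tagged factor mark DNA that was recovered with the tagged protein, whether the protein touched that DNA directly or through other proteins. The X chromosome has its own regulation in this animal. Hermaphrodites have a pair of X chromosomes and males a single one, and in hermaphrodites a dosage compensation complex loads onto X at recruitment sites and lowers transcription along it. Positions of those recruitment sites were not used here, and no gene was assigned to a peak, because no annotation of the files' genome build, WormBase WS180, was used.

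X peaks were mostly short regions with a few very strong ones. In the combined list the median width was 418 bp, the central 50% of widths ran from 280 to 698.8 bp, and the extremes were 1 and 5619 bp. The median was 428 bp in replicate 1 and 422.5 bp in replicate 2, but these medians are over different peaks. Over the 326 X peaks matched between the replicates, the medians were 433.5 bp in replicate 1 and 571.5 bp in replicate 2. X peaks under 50 bp numbered 24 in the combined list, and 85 X peaks, or 12.6%, were 1000 bp or wider, against 8.96% of the combined list over all chromosomes. On the other chromosomes this share ran from 4.84% on I to 12.2% on II, and in replicate 1 it was 7.78% on X and 13.3% on II. The peak caller's q-value, the false discovery rate it gives to a peak, was used as −log10 q, so that a larger value is a stronger call. It had a median of 6.38 on X, ran from 3.52 to 276, and had a 75% quantile of 10.9. Together the X peaks covered 394.9 kb in the combined list, 185.8 kb in replicate 1 and 392.3 kb in replicate 2. Depth is unknown, as no read counts come with the peaks, so q-values are compared within a list only.

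About 50% of the X peaks were called in both replicates, and these were the stronger and wider ones. Of the 674, 324 (48.1%, exact 95% interval 44.2 to 51.9) overlapped a peak of each replicate by at least 1 bp, against 41.9% of the combined list over all chromosomes. A replicate 2 partner was found for 98.7% of X peaks, against 97.9% over all chromosomes. This nearly follows from the lists, since 588 of the 674 had the ends and q of a replicate 2 peak. Presence in both replicates was thus nearly the same as presence in replicate 1, which held for 326. Besides the 324, 341 (50.6%) overlapped replicate 2 only, 2 overlapped replicate 1 only and 7 overlapped neither. A replicate 1 partner was found for 48.4% of X peaks (44.5 to 52.2), against 42.0% over all chromosomes. The same share was 23.98% on I, 41.9% on II, 52.9% on III, 48.1% on IV and 46.2% on V, so X lay among III, IV and V. These intervals cover counting error only and treat peaks as independent, although peaks cluster.

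The X peaks found in both replicates had a median width of 565.5 bp and a median −log10 q of 10.8. Those found in replicate 2 only had medians of 332 bp and 4.73. Support fell off with rank rather than at 1 value. With X peaks ordered by q and divided into 4 equal parts, 161 of the 169 strongest had a replicate 1 partner (95.3%), then 116 of 168 (69.0%), 41 of 169 (24.3%) and 8 of the 168 weakest (4.76%). The 90 strongest X peaks all had one. The strongest X peak without one lay at X:13469291-13471147, was 1857 bp wide and ranked 467 in the combined list with a q of 1.91e-17. It was followed by X:3969395-3970349 (q = 2.88e-15) and X:6324573-6325469 (q = 6.06e-14). Support also rose with width: 11.7% of the X peaks of at least 50 and under 200 bp were in both replicates, 38.5% of those of at least 200 and under 400 bp, 65.1% of those of at least 700 and under 1000 bp and 91.7% of those of 1500 bp or wider.

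In the other direction, 337 of the 347 replicate 1 X peaks (97.1%, 94.8 to 98.6) overlapped a replicate 2 peak, against 97.6% over all chromosomes. Of the 672 replicate 2 X peaks, 326 (48.5%) overlapped replicate 1, against 42.1%. The 10 replicate 1 peaks without a partner were weak. The strongest of them, X:4610259-4610644, ranked 1246 in replicate 1 with a q of 1.94e-05, and its nearest replicate 2 peak was 45226 bp away. Next came X:14566196-14566562 (q = 2.79e-05) and X:3087007-3087027 (q = 3.3e-05), which lay 1968 and 677 bp from a replicate 2 peak. Every X peak among the 100 strongest of replicate 1 thus had a replicate 2 partner.

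Where both replicates called an X region, they placed and ranked it alike. Matching peaks one to one by shared bases gave 326 X pairs. Their −log10 q values had a Spearman's rho of 0.886 across pairs, and the rho was 0.788 over the 1417 autosomal pairs. The points share the pair of libraries and the width of a region, and the difference between these correlations was not tested. The replicate 2 peak was the wider one in 296 of the 326 X pairs (90.8%), with median widths of 433.5 bp in replicate 1 and 571.5 bp in replicate 2. The midpoints lay a median of 24.5 bp apart, 90% of them within 245.5 bp and the farthest 972 bp. For the autosomal pairs these values were 27, 197 and 1887 bp. Pairs were formed by overlap, which itself limits how far apart midpoints can lie.

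**Figure D1:**
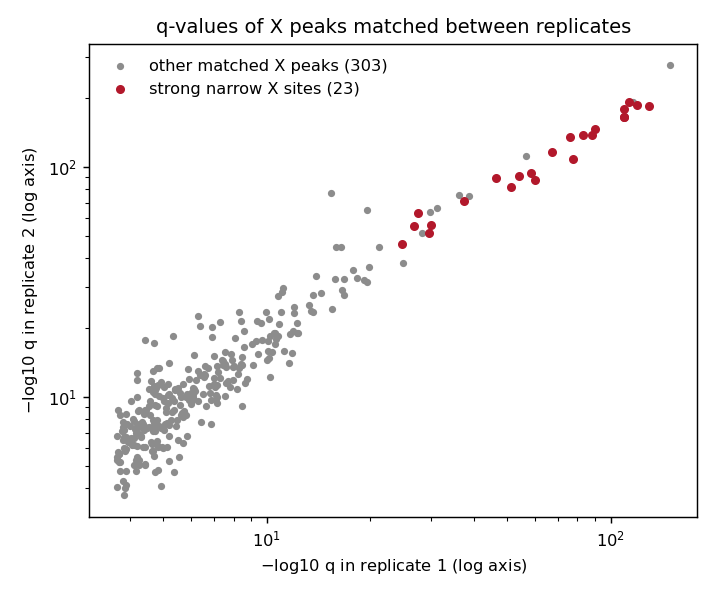
−log10 q of the 326 X peaks matched between the replicates, replicate 1 on the horizontal and replicate 2 on the vertical axis, both logarithmic, 1 point per pair of peaks. The 23 strong narrow X sites described next are in red and lie towards the upper end of both replicates, with other matched peaks among them. The single point above all of them in both replicates is X:16929326-16931988.

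A group of strong but narrow sites made up most of the top of the X list. They were defined as X peaks among the 100 smallest q-values of the whole combined list, at most 1500 bp wide and overlapping both replicates. There were 23 of them, or 3.41% of X peaks, and the same definition took in 1.16% of the combined list over all chromosomes. Of the X peaks, 37 (5.49%) were among the 100 strongest of the list, which are 2.41% of all its peaks. The strong narrow sites made up 23 of these 37 (62.2%), against 25 of the 63 autosomal ones (39.7%). Chromosomes differed in this share, from 2 of 10 on V (20%) to 12 of 21 on III (57.1%), which is near X. In replicate 1 alone, 26 of the 34 X peaks among its 100 strongest were at most 1500 bp wide (76.5%), against 43 of 66 on the autosomes (65.2%). Widths of the 23 X sites ran from 620 to 1307 bp with a median of 945 bp. The widest site inside the limit was 1307 bp, and the narrowest X peak among the 100 strongest outside it was 1547 bp. By rank, the last X site inside stood at 90, with a −log10 q of 46.2, and the next narrow X peak found in both replicates stood at 122, with 36.6.

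The sites are named here with their replicate 1 values, since 22 of the 23 had the same q in the combined and the replicate 2 list. The strongest was X:8035853-8037002, with a q of 4.42e-193 in the combined list and 6.13e-114 in replicate 1, where it ranked 6. X:12362516-12363716 had a q of 1.18e-119 in replicate 1 and ranked 4 there and 5 in replicate 2. X:14525342-14526648 had a q of 7.81e-130 and ranked 2 in replicate 1 and 6 in replicate 2. These 3 sites were thus within the top 6 of each replicate. X:2996373-2997500 ranked 7 in both replicates, X:6296058-6297091 ranked 8 and 9, and X:11093668-11094612 ranked 9 and 10. X:16056020-16056886, X:13700379-13701168 and X:11936980-11937852 ranked 10, 11 and 12 in replicate 1 and 13, 14 and 15 in replicate 2. The first 3 sites stood in the opposite order in the replicates, and the next 6 in the same order. X:9465374-9466190 ranked 15 and 16, and X:5429039-5429892 ranked 17 and 18. X:1626605-1627544 ranked 14 in replicate 1 and 22 in replicate 2, X:806297-807285 ranked 18 and 32, and X:2364417-2365530 ranked 24 and 39. Whether such differences in rank reflect a change between the libraries was not tested. X:16681537-16682464 ranked 23 and 29, and X:7181481-7182154 ranked 38 and 47. At the weaker end, X:10568312-10569184, X:5840693-5841505 and X:13514185-13514804 ranked 67, 57 and 74 in replicate 1 and 64, 70 and 90 in replicate 2. All 23 were among the 100 strongest peaks of replicate 1 taken alone. The same held in replicate 2, where it nearly follows from the definition, since 22 of the 23 had the q of the combined list.

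The replicates centred these sites alike, while the ends differed more. Each of the 23 was a single peak in both replicates. Median widths were 796 bp in replicate 1 (532 to 1170 bp) and 940 bp in replicate 2 (620 to 1307 bp), and the replicate 2 peak was the wider in 22 of 23. The exception was X:2996373-2997500, at 1158 bp in replicate 1 and 1128 bp in replicate 2. The midpoints of the replicates lay a median of 30.5 bp apart and within 100 bp of each other at 19 sites. Over all 326 matched X pairs the median was 24.5 bp, so close centring was not particular to these sites. At 10 of the 23 sites the first or the last base differed by over 100 bp, and by 583 bp at most. The largest shift, 277 bp, was at X:1453743-1455045, where replicate 1 called 691 bp of the 1303 bp called in replicate 2.

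**Figure D2:**
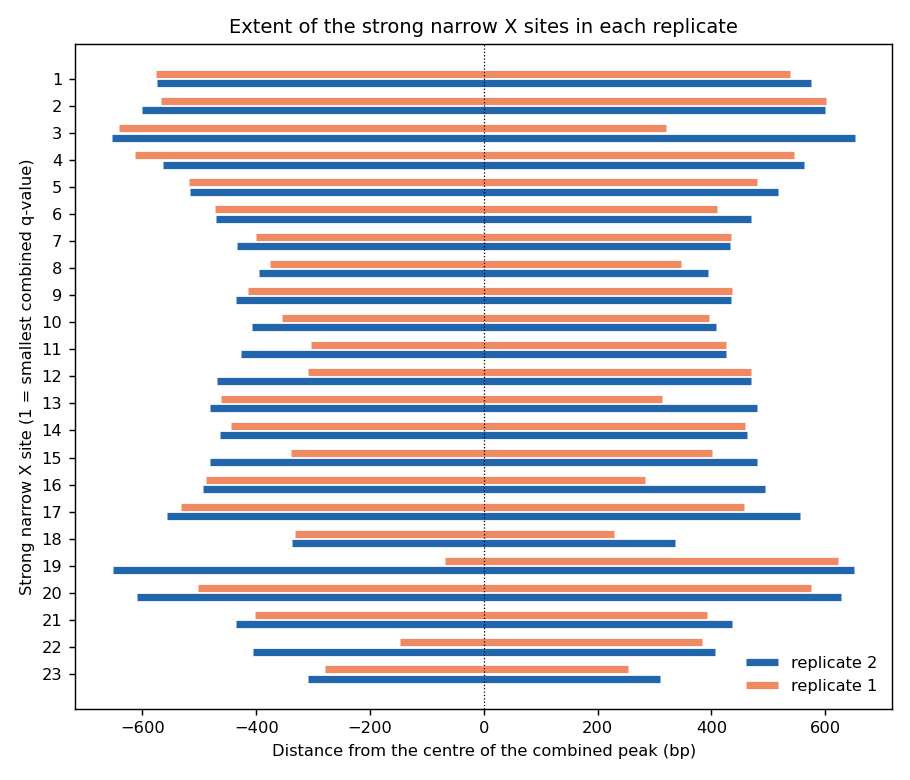
First to last base of each of the 23 strong narrow X sites in replicate 1 (orange) and replicate 2 (blue), as distance in bp from the centre of the combined peak, ordered from the smallest combined q-value at the top. The midpoints lie within 100 bp of each other at 19 sites, replicate 2 is the wider at 22, and the largest offset, 277 bp between midpoints, is at site 19.

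Strength set these sites apart from other X peaks of the same width, as the definition requires. X had 132 combined peaks of 700 to 1500 bp, of which 21 were strong narrow sites. The other 111 had a median −log10 q of 10.9, and none exceeded 36.6. On the autosomes, 17 of 449 peaks in that width range were among the 100 strongest of the combined list (3.79%), against 21 of 132 on X (15.9%). In replicate 1 alone the shares were 31.8% of 66 X peaks and 11.7% of 179 autosomal peaks, and in replicate 2 alone 15.9% of 132 and 3.99% of 451. The median −log10 q over that whole width range was 12.5 on X and 10.9 on the autosomes in replicate 1, and 12.8 and 11.8 in replicate 2. The typical peak of this width was thus of similar strength on X and elsewhere, and the upper tail was longer on X in both replicates. Among strong narrow sites, −log10 q exceeded 100 at 12 of the 23 on X and at 1 of the 25 on the autosomes. No test of these differences was made, because 2 libraries of 1 group allow none across samples.

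**Figure D3:**
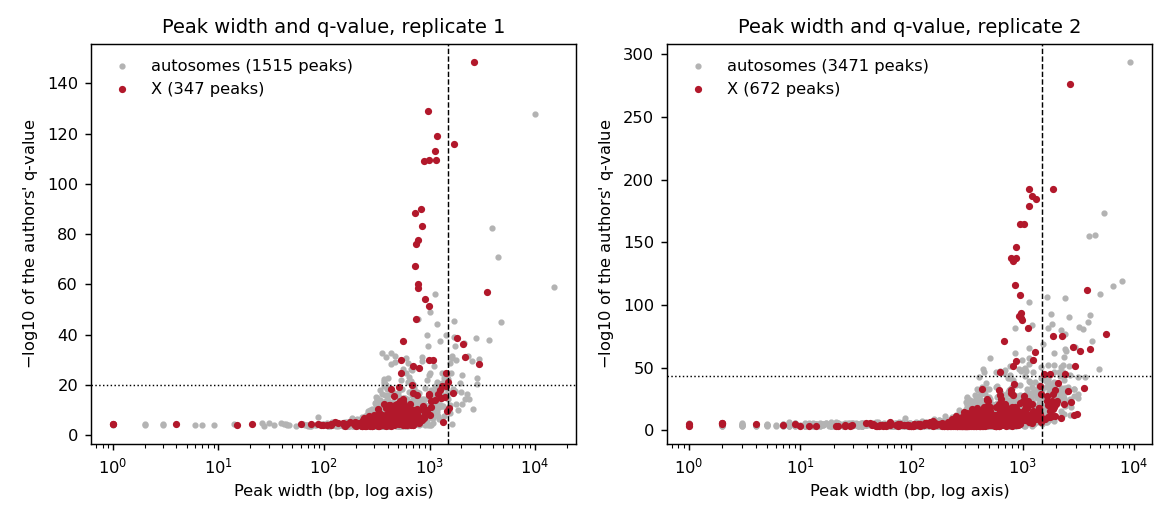
Peak width in bp (log axis) against −log10 of the authors' q-value in replicate 1 (left) and replicate 2 (right), with X peaks in red and autosomal peaks in grey. The dashed line marks 1500 bp and the dotted line the weakest of the 100 strongest peaks. Left of the dashed line the strongest peaks are on X in both replicates.

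The strong narrow sites were spread over the chromosome. The first began at 806297 and the last ended at 16682464. Neighbouring sites were a median of 581.9 kb apart, with distances from 44.6 kb to 2.43 Mb. Of the 22 distances, 2 were under 100 kb, both between X:1344489-1345451, X:1389126-1390087 and X:1453743-1455045, and 5 were over 1 Mb. The longest interval without one ran between X:2996373-2997500 and X:5429039-5429892. Of 17 complete 1 Mb windows counted from base 1, 14 held at least 1 site and the highest number was 4, in the window from 1000001 to 2000000. Dividing the called span of X into 3 equal lengths placed 9 sites in the left, 7 in the central and 7 in the right part.

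Some strong narrow sites stood alone and others had close neighbours, much as X peaks did in general. The nearest other X peak lay a median of 5.22 kb away between facing ends, against 4.14 kb for the 637 X peaks outside the 100 strongest. No other peak lay within 10 kb of 9 of the 23 sites (39.1%), and the same held for 32.3% of those 637 peaks. The most isolated was X:1626605-1627544, whose nearest neighbour was 121.5 kb away. The closest neighbour, 268 bp away, was beside X:11605229-11606487.

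The other 14 of the 37 strong X peaks were wide, from 1547 to 5619 bp, with a median of 2896.5 bp. The strongest X peak of all belonged here. X:16929326-16931988 ranked 1 in replicate 1 and 2 in replicate 2, was 2633 and 2663 bp wide in them, and had no other peak within 29.3 kb. X:4208296-4211470 ranked 5 and 3, and X:11790562-11794356 ranked 21 and 20. These 3 were ranked alike in both libraries. X:4208296-4211470 overlapped 2 peaks in each replicate, and its ranks are those of the wider one. The 3 widest X peaks were broken up in replicate 1. X:14557360-14562978 (5619 bp) overlapped 3 replicate 1 peaks, of which that sharing most bases was 1414 bp wide and ranked 153, although the region ranked 43 in replicate 2. X:11480855-11486434 (5580 bp) overlapped 4 replicate 1 peaks, with rank 185 for the main one, and 2 replicate 2 peaks, with rank 141. X:6741541-6745562 (4022 bp) overlapped 3 replicate 1 peaks, with ranks of 105 and 52 in replicates 1 and 2. Of all 85 X peaks of 1000 bp or more, 63 overlapped 1 replicate 1 peak, 9 overlapped 2 or more and 13 none, and replicate 1 peaks covered a median of 53.8% of their length. Of the 14 strong wide regions, 9 were among the 100 strongest of replicate 1, against all 23 strong narrow sites. The wide regions also ranked lower in replicate 2, at a median of 51 against 22. More than 1 replicate 1 peak was overlapped by 5 of the 14 and by 0 of the 23. Only the peak sharing most bases was ranked, so the counts do not compare how well the 2 kinds were reproduced.

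Spacing along X was uneven at short range. Neighbouring midpoints in the combined list were a median of 13.3 kb apart, with the central 50% of distances from 3.49 to 35.1 kb and a mean of 25.5 kb. The median was 26.4 kb in replicate 1 and 13.0 kb in replicate 2, and these lists differ in length. Another midpoint lay within 2 kb of 176 X peaks (26.1%), of 77 in replicate 1 (22.2%) and of 177 in replicate 2 (26.3%). On the other chromosomes the combined share ran from 18.4% on II to 41.8% on I. These shares were not adjusted for density, which was 24.3 peaks per Mb of called span on II, 39.3 on X and 69.2 on I. In the combined list the mean distance was 1.92 times the median on X, against 2.11 to 2.91 times on the others. In replicate 1 this ratio was 1.87 on X and ran from 1.69 to 2.55 on the others. Linking X peaks whose midpoints were at most 2 kb apart left 498 alone and formed 63 pairs, 8 groups of 3 and 6 groups of 4 or more.

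The largest group held 6 peaks between 8014437 and 8022195, of which 2 were found in replicate 1 and all 6 in replicate 2. The next by length held 4 peaks between 14500371 and 14506124, of which 3 were in replicate 1. The group of 4 between 3819605 and 3824277 had 1 in replicate 1. The smallest q-values in these 3 groups were 1.88e-14, 1.65e-16 and 4.11e-08, so none contained a strong site.

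**Figure D4:**
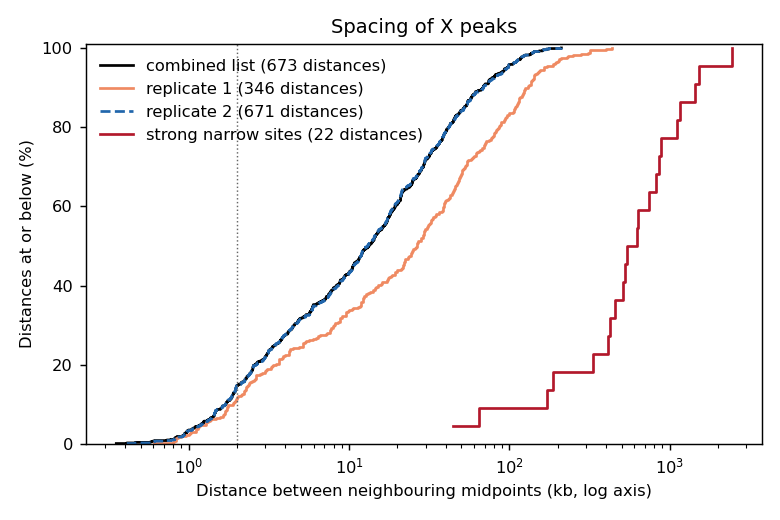
Cumulative share of distances between neighbouring X midpoints (kb, log axis) in the combined list, in each replicate and among the 23 strong narrow sites. The combined and replicate 2 curves nearly coincide, replicate 1 lies to their right with a median of 26.4 kb, and the strong narrow sites are a median of 581.9 kb apart. The dotted line marks 2 kb.

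Every 1 Mb window of X held peaks. The 17 complete 1 Mb windows held between 26 and 56 combined peaks, with a mean of 38.3 ± 8.21 (SD over windows), and the densest held 2.15 times as many as the sparsest, a ratio of 3.33 in replicate 1. The densest were 8000001 to 9000000 with 56 peaks, 4000001 to 5000000 with 48 and 6000001 to 7000000 with 47. The sparsest were 1 to 1000000 with 26, 1000001 to 2000000 with 27, and 7000001 to 8000000 and 16000001 to 17000000 with 28 each. The window from 1 to 1000000 sets both ratios, and it includes the left end, where no list had a peak before base 324072. The dense windows differed in their support. Replicate 1 had 17 peaks in the window of 56, where 30.4% of combined peaks were in both replicates, and 30 in the window of 48, where 56.3% were. In the sparse window from 1000001 to 2000000 the share was 66.7% and the median −log10 q 10.9, the highest of any window, with 4 strong narrow sites. Across the 17 windows the replicate counts had a Spearman's rho of 0.588, and windows share the local sequence and both libraries. The central 33.3% of the called span held 35.2% of the combined X peaks (31.6 to 38.9), 33.1% of those in replicate 1 and 35.3% of those in replicate 2.

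The left end of X had no peak in any of the 3 lists before base 324072. This was a longer stretch than any between X peaks of the combined list. On the other chromosomes the first called base over the 3 lists lay between 3645 and 86377. Within X, the longest stretches without a combined peak were X:1627545-1837747 (210.2 kb), X:17216540-17392143 (175.6 kb) and X:3371662-3540876 (169.2 kb), and none of them held a peak of either replicate. The longest such stretch on each of the other chromosomes ran from 246.6 kb on III to 692.2 kb on V in the combined list. The right end was not assessed, because the length of X in this build was not used.

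The combined X peaks that differed from replicate 2 lay, with 1 exception, in 2 windows of 1 Mb. In all, 588 of the 674 combined X peaks (87.2%) matched a replicate 2 peak in both ends and in q, and 0 matched a replicate 1 peak in this way. These are complete counts over the lists, so no interval is given. Of the other 86, 47 lay between 4000001 and 5000000, where 1 of 48 peaks was identical, and 38 between 11000001 and 12000000, where 0 of 38 were. The remaining 1 lay between 9000001 and 10000000. In the other 15 windows, the incomplete last one included, every peak was identical. Over all chromosomes, 70 of 102 windows were at least 90% identical, 31 were under 10% identical and 1 lay between, so windows of 1 Mb were nearly always of one kind or the other.

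Inside the 2 X windows that differed, the lists still described mostly the same regions. Their 86 combined peaks gave 78 pairs with replicate 2 peaks. The larger of the end differences had a median of 6.5 bp, was at most 10 bp in 48 pairs and reached 1978 bp. The q-value was the same in 41 pairs. Of the 9 combined X peaks with no replicate 2 partner, 8 were in these windows. X:4208296-4211470 lies in one of them. It is 1 peak of 3175 bp in the combined list and a pair of peaks in each replicate. The stronger of the pair was 1688 bp wide in replicate 1 and 1875 bp in replicate 2. Among the strong narrow sites, X:11093668-11094612, X:11605229-11606487 and X:11936980-11937852 lie in the other, and the ends of the remaining 20 were those of replicate 2. The combined list is therefore not counted here as evidence separate from replicate 2.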

How the data were processed

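The authors deposited 3 peak lists, 1 per ChIP replicate and 1 combined, in WormBase WS180 coordinates with PeakSeq as the source, per the file headers. Each row holds both ends of a peak and its q-value (a p-value adjusted by the authors' caller), which the last column repeats in all 4152, 1862 and 4143 rows. The aligner, PeakSeq version, filters, q limit, use of the inputs and way of combining replicates were not given in the sources used here. The inputs were not analysed here.

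X rows were selected by chromosome. Peaks were shared at an overlap of 1 bp, ranks are by q within a list over all chromosomes, spacing is between midpoints, distances to a nearest peak are between facing ends, and windows of 1 Mb start at base 1. Intervals given with shares are exact (Clopper-Pearson) 95% intervals. No test over peaks was run. Regions named are the 20 strongest X peaks in both replicates, the strong narrow sites, the 3 widest, the longest gaps, the largest groups, the extreme windows and the strongest unshared peaks. The comparison of windows by identity, the width range of 700 to 1500 bp, the left end and the 10 kb neighbourhood were chosen after the values were seen. Members, limits and lists were chosen with earlier results of these data known. Functions were tested on simulated peaks. Computations used Python 3.11.15 with numpy 2.4.6, pandas 2.3.3, scipy 1.17.1 and matplotlib 3.10.9.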

Additional observations from a re-analysis of the deposited data

How the results depend on the processing

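Of 50 alternatives over 10 results, 31 stayed within the 95% interval of the reported value (from Fisher's z for the rank correlation) or, for the number of strong narrow sites, within 1.5 times and, for the window ratio, within 1 SD between the replicates. The other 19 did not, and the cause was not tested.

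In the better-ranked 50% of X peaks, the share found in replicate 1 and the share found in both replicates were 82.2%, the share found in replicate 2 was 100%, the median width was 620 bp, the median distance 28.3 kb and the share with a neighbour within 2 kb 16.6%. With an overlap of 50% of both peaks, the share found in replicate 1 and in both was 41.5%. Among peaks found in both replicates, the median width was 565.5 bp, the median distance 28.9 kb, the share with a neighbour within 2 kb 15.7% and the ratio of the densest to the sparsest window 3.38. A neighbour lay within 1 kb of 6.68% of X peaks and within 5 kb of 51.5%, and windows of 0.5 Mb gave a ratio of 4.57. A width limit of 1000 bp left 15 strong narrow sites.

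Without replicate 1 and without replicate 2, the median distance ranged from 13.0 to 26.4 kb, the share with a neighbour within 2 kb from 22.2% to 26.3%, the window ratio from 2.15 to 3.33, the median width from 422.5 to 428 bp, the share in the central 33.3% from 33.1% to 35.3% and the number of strong narrow sites from 23 to 26. The replicate 2 list largely repeats the combined list, so leaving out replicate 1 could hardly change a value. No paired analysis was possible because only the ChIP group has peaks to compare. Depth is unknown, and why X regions were missing from the shorter list was not tested.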
